A study of Mus musculus with 8 samples.

Results

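The genes that encode the proteins of the cytosolic ribosome were examined in bulk RNA sequencing of mouse liver. They were taken by symbol: names that begin with Rpl or Rps and a number, with the endings in use for these genes, together with Rpsa and the stalk genes Rplp0, Rplp1 and Rplp2, and without pseudogene names ending in -ps. This gave 81 genes among the 13703 rows of the expression table. Of these, 46 were canonical genes of the large (60S) subunit and 30 canonical genes of the small (40S) subunit. The other 5 were paralogs with an l in the name, namely Rpl7l1, Rpl22l1 and Rpl36al of the large subunit and Rps4l and Rps27l of the small subunit. The group was proposed with the genotype difference and the spread within each genotype in view, and its members were thus chosen by values of the same contrast that is described below. The values are therefore given as a description, with no p-value printed for any member and no test of the group. Members are marked as called or not by an adjusted p-value from a fit over all genes. For them such a call is a description too.

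Both groups of mice carried loxP-flanked alleles of Bicd2, which encodes an adaptor linking the motor protein dynein to its cargo. Alb-Cre Bicd2fl/fl mice also had a Cre recombinase under the albumin promoter, which is active in hepatocytes, and Alb-WT Bicd2fl/fl mice had no Cre. Mice of both genotypes received weekly intraperitoneal doses of S-100, a soluble liver homogenate fraction, in complete Freund's adjuvant, which serves as a model of autoimmune hepatitis, and livers were collected 2 weeks after the last dose. There were 4 libraries of each genotype, ages are not given in the labels, and unimmunised liver was not analysed here. The labels do not say that the libraries came from separate animals, so a p-value here covers only how these libraries vary among themselves, and that variation may be technical.

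Values were FPKM, numbers of sequenced fragments scaled by gene length and library total. For most rows the length was that of a gene's merged exons, which can exceed its mRNA, so FPKM compares different genes only loosely. The library totals behind the values lay between 32793770 and 39157210. Bicd2 itself stood at 0.705, 0.568, 0.509 and 0.732 FPKM across Alb-Cre replicates 1 to 4 and at 2.46, 3.02, 2.80 and 3.11 FPKM across Alb-WT replicates 1 to 4. The Alb-Cre values were all lower, as the labels state (log2 difference -1.24, SE 0.0824, limma adjusted p = 7.25e-05, exact permutation p = 0.0286, the smallest that 4 against 4 libraries allow). Alb-Cre replicate 4 differed from the rest of its group in immune cell markers. Its summed Kupffer cell markers came to 385 FPKM, the top of an Alb-Cre range that began at 124 FPKM.

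Eukaryotic ribosomes are built in the nucleolus from ribosomal RNA and a fixed set of proteins, needed in fixed proportions, and their genes are therefore usually expressed together. In vertebrates the mRNAs of these proteins are known for a 5′ terminal oligopyrimidine (TOP) tract, a C at the first base followed by a run of C and T, through which the mTORC1 kinase and the binding protein Larp1 control their translation. In liver, where most plasma proteins are made, ribosomes take a large part of the cell's RNA. In bulk tissue, fewer cells of a type and less RNA per cell cannot be told apart.

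The starts of 9 members are shown because they set the tract beside the genes whose values are described below. Each run gives 10 bases before and 20 bases from the RefSeq transcription start in GRCm38.p6, on the gene's own strand, and the tract, where a C stood at the start and at least 4 pyrimidines followed it, is in capitals.
Rps6, chr4:86857348-86857377, minus strand: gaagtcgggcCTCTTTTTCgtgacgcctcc
Rps27, chr3:90213629-90213658, minus strand: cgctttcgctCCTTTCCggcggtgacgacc
Rpl38, chr11:114668570-114668599, plus strand: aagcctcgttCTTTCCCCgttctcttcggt
Rps21, chr2:180257369-180257398, plus strand: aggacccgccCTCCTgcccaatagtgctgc
Rpl35, chr2:39005112-39005141, minus strand: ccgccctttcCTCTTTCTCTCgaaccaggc
Rplp2, chr7:141447641-141447670, plus strand: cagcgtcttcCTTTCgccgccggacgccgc
Rpl15, chr14:18270967-18270996, minus strand: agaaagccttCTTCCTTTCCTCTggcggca
Rpsa, chr9:120127756-120127785, plus strand: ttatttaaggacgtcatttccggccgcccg
Rpl12, chr2:32961702-32961731, plus strand: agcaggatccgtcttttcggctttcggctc
A tract at the annotated start was found in 13 of the 60 members with a RefSeq start (21.7%), against 813 of 27025 genes (3.01%). Allowing it to begin within 5 bases of the start raised the count to 29 members (48.3%), against 21.2% of genes. A C followed by at least 6 pyrimidines was at the start of 10 members (16.7%), against 1.29% of genes. Only the gene's own strand was read. In Rpsa and Rpl12 these letters are not at the annotated start, and in Rpl12 such a run begins just after it.

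Most members were higher in Alb-Cre liver. Of the 79 that passed the expression filter (mean of at least 0.5 FPKM over the 8 libraries), 77 had a higher mean in Alb-Cre, where 32.3% of all 11077 genes tested did. The median difference was 0.36 on the log2(FPKM + 1) scale, the scale of every log2 difference here, against -0.13 over all genes. A gene was called when limma's test over all genes gave a Benjamini-Hochberg adjusted p under 0.05. On that rule 43 members (54.4%) were called higher, beside 8.48% of all genes, and 36 were not called. None of the 79 was called lower, beside 23.3% of all genes, and a call in either direction was made for 31.8% of all genes. For 41 members (51.9%) every Alb-Cre value lay above every Alb-WT value, beside 9.27% of all genes. Less the median of all genes, the members' median was 0.49, and it was 0.24 with quantile normalisation. The balance of calls over all genes depended on scaling, with 939 higher and 2582 lower as described, 1723 and 1656 with median-of-ratios scaling, and 1554 and 1469 with quantile normalisation. Since the members' values chose the group, the shares describe it and support nothing further.

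Both subunits held called and uncalled genes in similar shares. In the large subunit 25 of 48 genes were called higher, with a median difference of 0.34, and in the small subunit 18 of 31, with a median of 0.38. Among canonical genes 41 of 74 were called higher, with a median of 0.37, and among paralogs 2 of 5, with a median of 0.17.

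**Figure D1:**
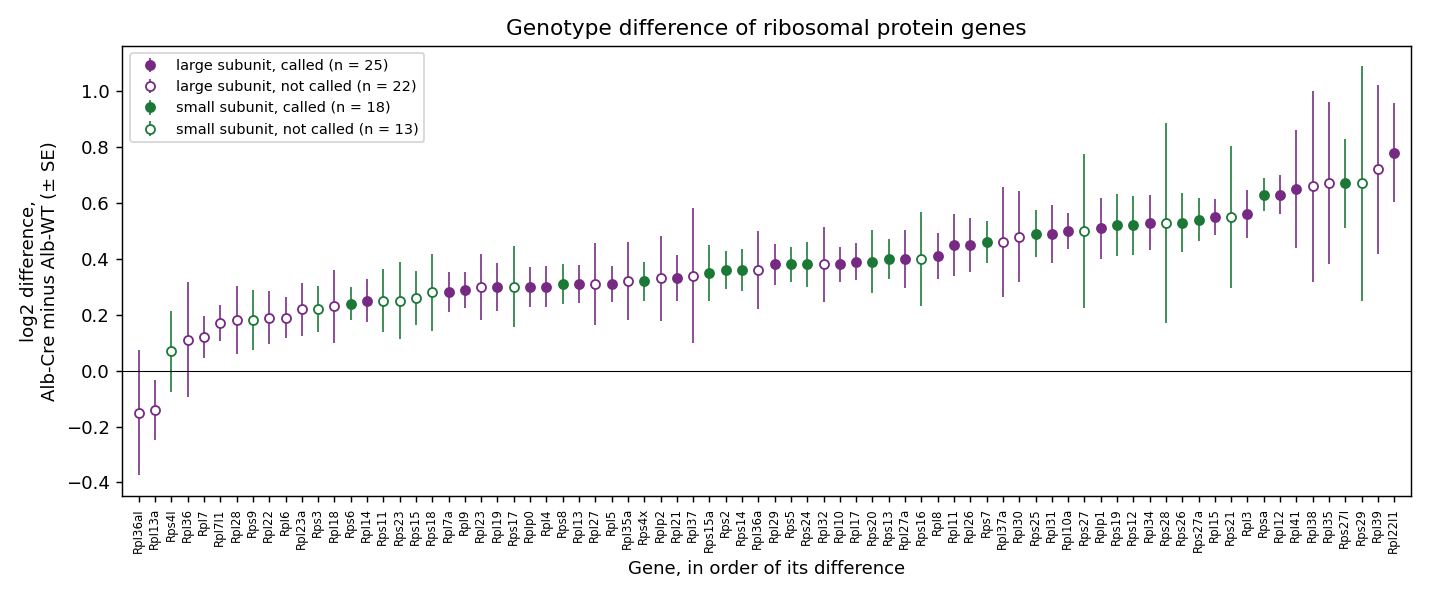
Genotype difference (Alb-Cre minus Alb-WT, log2(FPKM + 1) scale, points with their standard error) of 78 tested ribosomal protein genes in order of size, with filled points for genes called by limma and open points for the others. All but Rpl36al and Rpl13a lie above 0, and several of the largest differences, such as those of Rpl39, Rps29 and Rpl38, have wide errors and are not called.

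The summed-up level of the canonical genes moved between libraries of the same genotype as well. A score was taken for each library as the mean log2(FPKM + 1) of the 74 tested canonical genes less the Alb-WT mean. It was 0.43, 0.16, 0.47 and 0.45 across Alb-Cre replicates 1 to 4 and -0.14, 0.15, -0.15 and 0.14 across Alb-WT replicates 1 to 4. Alb-Cre replicate 2 was low for its group, Alb-WT replicates 2 and 4 were high for theirs, and the lowest Alb-Cre score exceeded the highest Alb-WT score by 0.02. The swing, the highest score less the lowest, was 0.31 within Alb-Cre and 0.29 within Alb-WT, beside a difference of 0.38 between the genotype means. Without Alb-Cre replicate 2 the swing within Alb-Cre was 0.05. That replicate 2 alone was low in Alb-Cre depended on scaling: with median-of-ratios scaling the Alb-Cre scores were 0.64, 0.41, 0.69 and 0.43, so that replicate 4 was close to replicate 2. The gap of 0.02 between the genotypes depended on scaling too. With quantile normalisation Alb-Cre replicate 2, at 0.11, lay below Alb-WT replicate 2, at 0.14. After rescaling to a common FPKM sum it was at 0.04, below Alb-WT replicates 2 and 4 at 0.13 and 0.12. The swing within Alb-Cre was then 0.42.

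In both subunits the same libraries were low and high for their genotype. The large subunit score was 0.40, 0.17, 0.46 and 0.42 across Alb-Cre replicates 1 to 4 and -0.13, 0.15, -0.14 and 0.12 across Alb-WT replicates 1 to 4. The small subunit score was 0.46, 0.15, 0.49 and 0.49 in Alb-Cre and -0.14, 0.14, -0.15 and 0.15 in Alb-WT. Among single genes, Alb-Cre replicate 2 was the lowest Alb-Cre library for 54 of 79 members (68.4%), beside 32.9% of all genes. Alb-WT replicates 2 and 4 both lay above replicates 1 and 3 for 61 members (77.2%), beside 15.9% of all genes.

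The swing also showed in the members' share of the sequencing. Reads on the 81 genes made up 1.76%, 1.56%, 1.81% and 1.79% of the library total across Alb-Cre replicates 1 to 4 and 1.25%, 1.42%, 1.24% and 1.42% across Alb-WT replicates 1 to 4. Alb-Cre replicate 2, low for its group, still lay above every Alb-WT library. The 3 libraries that were low for their genotype had totals between 33278910 and 33534630, and Alb-Cre replicate 4 and Alb-WT replicates 2 and 4 had 37053270 to 39157210. Alb-Cre replicate 1 had the smallest total, 32793770, and a high score. The part of depth in the swing was not tested.

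**Figure D2:**
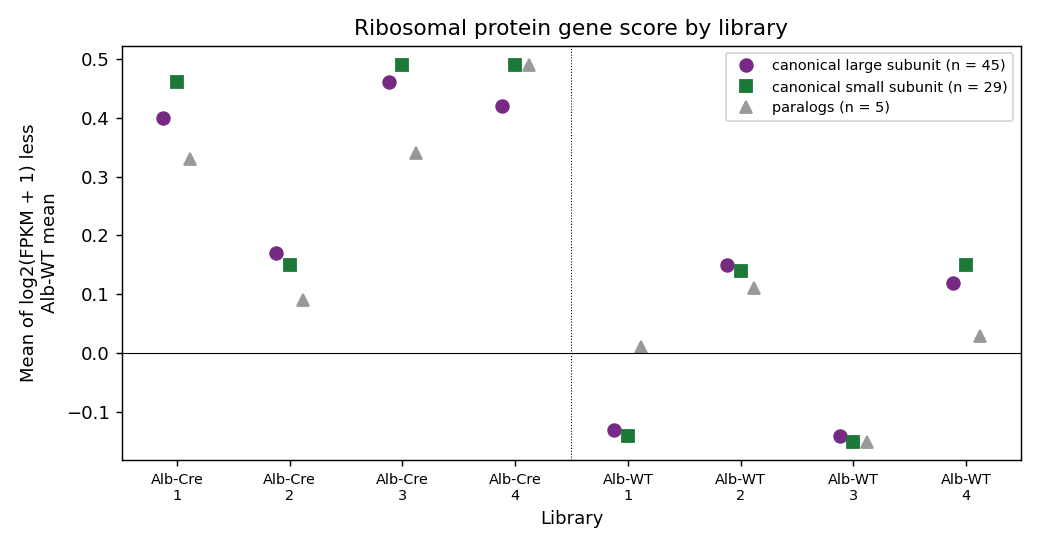
Score of ribosomal protein genes (mean log2(FPKM + 1) less the Alb-WT mean, vertical axis) in each of the 8 libraries (horizontal axis), with circles for 45 canonical large subunit genes, squares for 29 canonical small subunit genes and triangles for 5 paralogs. Alb-Cre replicates 1, 3 and 4 lie at 0.40 or above for both subunits, Alb-Cre replicate 2 lies at 0.17 and 0.15, and Alb-WT replicates 2 and 4 reach 0.12 to 0.15.

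Of the large subunit genes, the ones with steady levels within a genotype differed most clearly. Rpl12 encodes a protein at the base of the stalk, where elongation factors bind. It stood at 66.0, 71.4, 64.8 and 75.5 FPKM across Alb-Cre replicates 1 to 4 and at 45.3, 45.9, 42.1 and 44.9 FPKM across Alb-WT replicates 1 to 4. The groups did not overlap, and the lowest Alb-Cre library, replicate 3, was well above the highest Alb-WT library (mean 69.4 ± 4.95 against 44.5 ± 1.69 FPKM, SD, n = 4, 1.56-fold, log2 difference 0.63, SE 0.0685, called). Rpl3 encodes a core protein close to the peptidyl transferase centre. Its level was 105, 101, 106 and 126 FPKM in Alb-Cre and 71.7, 77.7, 68.8 and 77.1 FPKM in Alb-WT. Again the groups were apart, with Alb-Cre replicate 4 the highest (log2 difference 0.56, SE 0.0848, called). Rpl15, a gene with a start tract of 13 bases, was at 92.9, 95.3, 82.9 and 85.2 FPKM in Alb-Cre and 58.5, 61.0, 60.4 and 62.4 FPKM in Alb-WT. In this gene Alb-Cre replicate 2 was the highest library and not a low one (log2 difference 0.55, SE 0.0656, called).

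Rpl34, a surface protein gene of the large subunit, stood at 47.9, 40.7, 47.7 and 45.4 FPKM in Alb-Cre and 29.7, 30.3, 27.7 and 37.4 FPKM in Alb-WT, without overlap (log2 difference 0.53, SE 0.0995, called). Rpl10, whose product joins late and is needed for the subunits to associate, was among the most abundant per length. It measured 290, 295, 303 and 320 FPKM in Alb-Cre and 225, 241, 228 and 234 FPKM in Alb-WT. Within each genotype it varied little, the highest Alb-WT value being 1.07 times the lowest, and the groups did not overlap (log2 difference 0.38, SE 0.0641, called).

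Rpl5 and Rpl11 encode the proteins that bind 5S ribosomal RNA and, when ribosome assembly is disturbed, the p53 regulator Mdm2. Rpl5 was at 88.9, 84.3, 76.8 and 83.1 FPKM in Alb-Cre and 69.7, 66.8, 64.3 and 67.6 FPKM in Alb-WT (log2 difference 0.31, SE 0.0647, called). Rpl11 was at 97.4, 77.9, 102 and 96.5 FPKM in Alb-Cre and 60.0, 74.2, 62.2 and 76.2 FPKM in Alb-WT (log2 difference 0.45, SE 0.112, called). Neither gene overlapped between genotypes. Rpl11 showed the swing, with Alb-Cre replicate 2 low and Alb-WT replicates 2 and 4 high, and Rpl5 did not.

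The largest differences of canonical large subunit genes were not called. Rpl39 encodes one of the smallest ribosomal proteins, in the wall of the exit tunnel. It measured 70.5, 34.9, 72.6 and 71.4 FPKM in Alb-Cre and 26.2, 49.1, 25.9 and 49.7 FPKM in Alb-WT. Alb-Cre replicate 2 lay below Alb-WT replicates 2 and 4, so the groups overlapped (log2 difference 0.72, SE 0.302, not called). Rpl35 and Rpl38, both with a start tract, behaved alike. Rpl35 was at 72.2, 37.0, 71.7 and 67.7 FPKM in Alb-Cre and 26.1, 51.9, 28.2 and 51.3 FPKM in Alb-WT (log2 difference 0.67, SE 0.290). Rpl38 was at 140, 73.0, 163 and 164 FPKM in Alb-Cre and 56.3, 126, 55.8 and 109 FPKM in Alb-WT (log2 difference 0.66, SE 0.342). In each of these 3 genes the low libraries were Alb-Cre replicate 2 and Alb-WT replicates 1 and 3.

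At the other end stood genes with little difference. Rpl36 was at 198, 132, 238 and 220 FPKM in Alb-Cre and 151, 209, 147 and 219 FPKM in Alb-WT, where the groups overlapped widely (log2 difference 0.11, SE 0.206, not called). Rpl22, a gene whose loss is compensated by its paralog Rpl22l1, had 40.5, 34, 38.8 and 33.7 FPKM in Alb-Cre and 28.7, 36.1, 29.8 and 34 FPKM in Alb-WT (log2 difference 0.19, SE 0.0955, not called).

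The stalk genes were high in level. Rplp1, an acidic stalk protein gene, was the most abundant member per length, with 699, 543, 676 and 665 FPKM in Alb-Cre and 418, 483, 411 and 502 FPKM in Alb-WT. The groups did not overlap, and both genotypes showed the swing (log2 difference 0.51, SE 0.109, called). Rplp0, the stalk scaffold, was at 293, 283, 312 and 325 FPKM in Alb-Cre and 239, 243, 239 and 262 FPKM in Alb-WT, without overlap (log2 difference 0.30, SE 0.0718, called). Rplp2, the partner of Rplp1, was much lower per length at 37.8, 29.5, 39.2 and 47.9 FPKM in Alb-Cre and 25.9, 32.9, 26.8 and 35.3 FPKM in Alb-WT. Its merged exons span 2072 bases, beside 421 for its mRNA, and those of Rplp1 span 499. Recovered reads per library were 1800 to 3887 for Rplp2 and 6827 to 12994 for Rplp1, a smaller gap than that in FPKM. The groups of Rplp2 overlapped at Alb-Cre replicate 2 (log2 difference 0.33, SE 0.152, not called).

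In the small subunit the clearest separation was that of Rpsa, which encodes a protein of the mRNA exit side also known as the laminin receptor. It measured 219, 222, 226 and 216 FPKM in Alb-Cre and 140, 138, 140 and 150 FPKM in Alb-WT. Within each group the values were close, with no low Alb-Cre replicate 2, and the groups lay far apart (mean 221 ± 4.55 against 142 ± 5.28 FPKM, SD, n = 4, 1.56-fold, log2 difference 0.63, SE 0.0592, called). Rps27a, which encodes a fusion of ubiquitin and a 40S protein, was at 118, 99.7, 111 and 113 FPKM in Alb-Cre and 70.5, 77.9, 73.1 and 81.4 FPKM in Alb-WT, without overlap (log2 difference 0.54, SE 0.0766, called). Rps26, a protein of the mRNA exit channel, stood at 134, 131, 144 and 130 FPKM in Alb-Cre and 80.6, 114, 86.6 and 93.9 FPKM in Alb-WT. Its swing was present in Alb-WT and small in Alb-Cre, where the highest value was 1.10 times the lowest (log2 difference 0.53, SE 0.105, called).

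Rps19, the gene most often mutated in Diamond-Blackfan anaemia, was at 31.0, 24.1, 29.9 and 30.9 FPKM in Alb-Cre and 17.4, 20.8, 18.3 and 23.0 FPKM in Alb-WT. Alb-Cre replicate 2 was the low one and still lay above all Alb-WT libraries (log2 difference 0.52, SE 0.111, called). Rps14, whose haploinsufficiency underlies the anaemia of the 5q- syndrome in people, was at 155, 129, 134 and 137 FPKM in Alb-Cre and 108, 102, 105 and 115 FPKM in Alb-WT (log2 difference 0.36, SE 0.0760, called). Rps6, the substrate of the S6 kinases downstream of mTORC1, was the steadiest member within Alb-WT. It had 252, 237, 234 and 244 FPKM in Alb-Cre and 207, 205, 202 and 202 FPKM in Alb-WT. The highest Alb-WT value was 1.03 times the lowest, and the groups did not overlap (log2 difference 0.24, SE 0.0589, called).

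Among the members taken by the naming rule, Rps2 and Rps15 were the most abundant small subunit genes per length. Rps2, a protein of the mRNA entry channel, was at 357, 361, 378 and 398 FPKM in Alb-Cre and 301, 274, 289 and 298 FPKM in Alb-WT, without overlap (log2 difference 0.36, SE 0.0694, called). Rps15 was at 353, 325, 411 and 349 FPKM in Alb-Cre and 275, 328, 281 and 311 FPKM in Alb-WT, where Alb-WT replicate 2 slightly exceeded Alb-Cre replicate 2 (log2 difference 0.26, SE 0.0958, not called). Rps3, also at the mRNA entry, and Rps9, a core protein, were among the canonical small subunit genes with the smallest differences. Rps3 had 71.7, 62.6, 75.7 and 77.3 FPKM in Alb-Cre and 59.0, 62.1, 58.3 and 66.6 FPKM in Alb-WT (log2 difference 0.22, SE 0.0827, not called). Rps9 had 89.9, 77.9, 93.9 and 107 FPKM in Alb-Cre and 74.3, 80, 78.2 and 92.6 FPKM in Alb-WT (log2 difference 0.18, SE 0.107, not called).

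Among tested members the swing within Alb-WT was widest in Rps29, which encodes a small zinc-binding protein of the 40S head. It stood at 144, 61.8, 177 and 169 FPKM in Alb-Cre and 51.2, 131, 51.4 and 119 FPKM in Alb-WT. Alb-WT replicates 2 and 4 were far above replicates 1 and 3, and Alb-Cre replicate 2 lay near the lower Alb-WT pair (log2 difference 0.67, SE 0.419, not called). Rps21, a small protein gene with a start tract, was at 141, 75.9, 136 and 137 FPKM in Alb-Cre and 66.2, 103, 59.5 and 106 FPKM in Alb-WT, with the same libraries low (log2 difference 0.55, SE 0.253, not called). Rps28, chosen after its values were seen, was at 37.4, 17.3, 44.4 and 41.2 FPKM in Alb-Cre and 15.7, 34.3, 15.0 and 32.0 FPKM in Alb-WT. Alb-Cre replicate 2 and Alb-WT replicates 1 and 3 were again low (log2 difference 0.53, SE 0.358, not called).

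**Figure D3:**
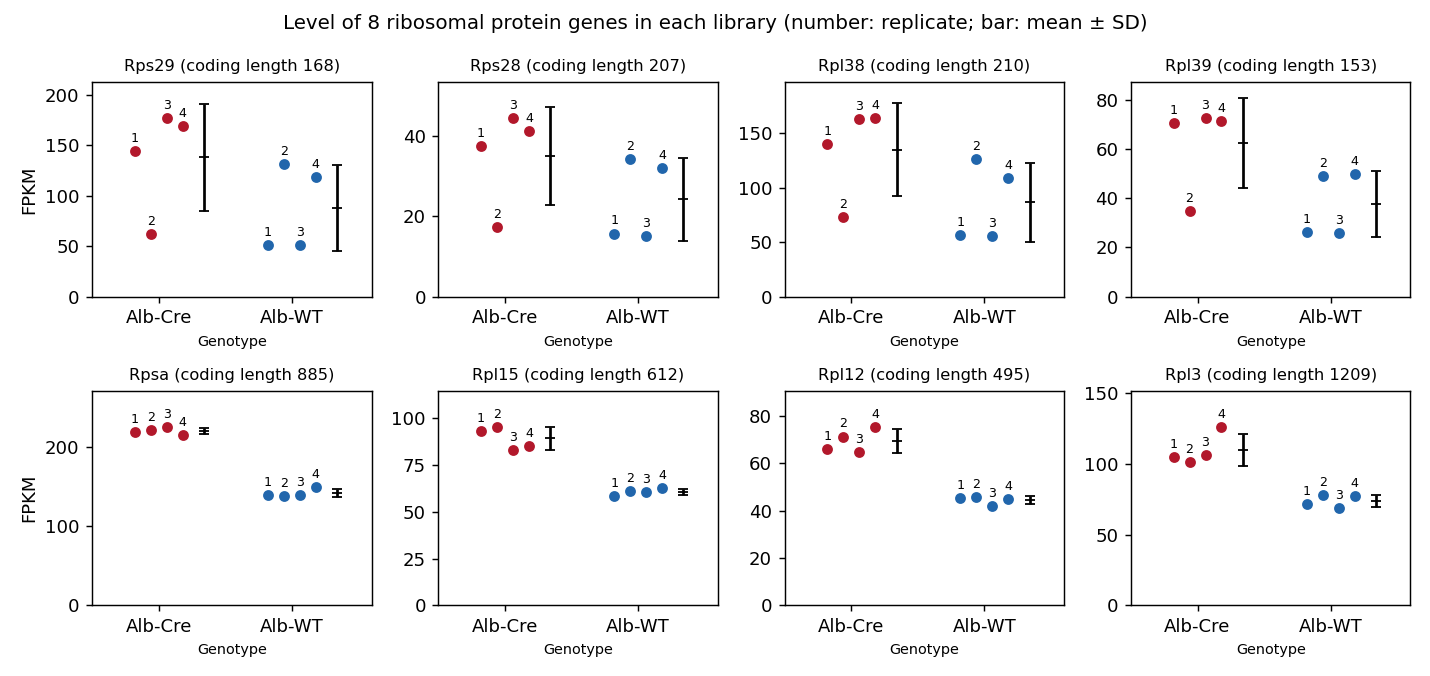
FPKM (vertical axes, from 0) of 8 ribosomal protein genes in the 4 Alb-Cre and 4 Alb-WT libraries, with numbered points for replicates, bars for mean ± SD, and each gene's longest coding length in bases in its title. In the upper row (Rps29, Rps28, Rpl38, Rpl39) Alb-Cre replicate 2 and Alb-WT replicates 1 and 3 lie low and the groups overlap, while in the lower row (Rpsa, Rpl15, Rpl12, Rpl3) the groups are apart.

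The genes with a wide swing share a short coding sequence. Taking the longest coding length of each gene in GENCODE M21, Rps29 has 168 bases, Rpl39 has 153, Rps28 has 207 and Rpl38 has 210, whereas Rpsa has 885, Rpl15 has 612 and Rpl3 has 1209. Across the 78 tested members with a coding length, the rank correlation of coding length with the log2 range within Alb-WT was -0.82 (Spearman's rho), and with the range within Alb-Cre -0.70. These are descriptions across genes, which share the same 8 libraries and are not independent. A further length was that of the mRNA with the longest coding sequence, the shortest such mRNA where several tied. With it the rho was -0.53 within Alb-WT, with the merged exon length behind the FPKM values -0.31, and with the mean FPKM -0.33. Over 4560 other genes averaging 5 FPKM or more the rho of coding length with the range within Alb-WT was -0.27.

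By class of coding length, the ratio of highest to lowest Alb-WT library had a median of 2.09 for the 6 members of up to 250 bases, 1.40 for 12 of 251 to 350, 1.29 for 20 of 351 to 450, 1.16 for 16 of 451 to 600 and 1.10 for 24 over 600. Other genes of at least 5 FPKM in the same classes had medians of 1.28, 1.25, 1.18, 1.16 and 1.12. Members and other genes of over 450 bases were thus within 0.02 of each other, and in the shortest class the members' ratio was the wider. Within Alb-Cre the members' medians were 2.16, 1.53, 1.27, 1.18 and 1.16, and those of other genes 1.49, 1.38, 1.31, 1.31 and 1.30. No test was run of the members against other genes of their length.

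**Figure D4:**
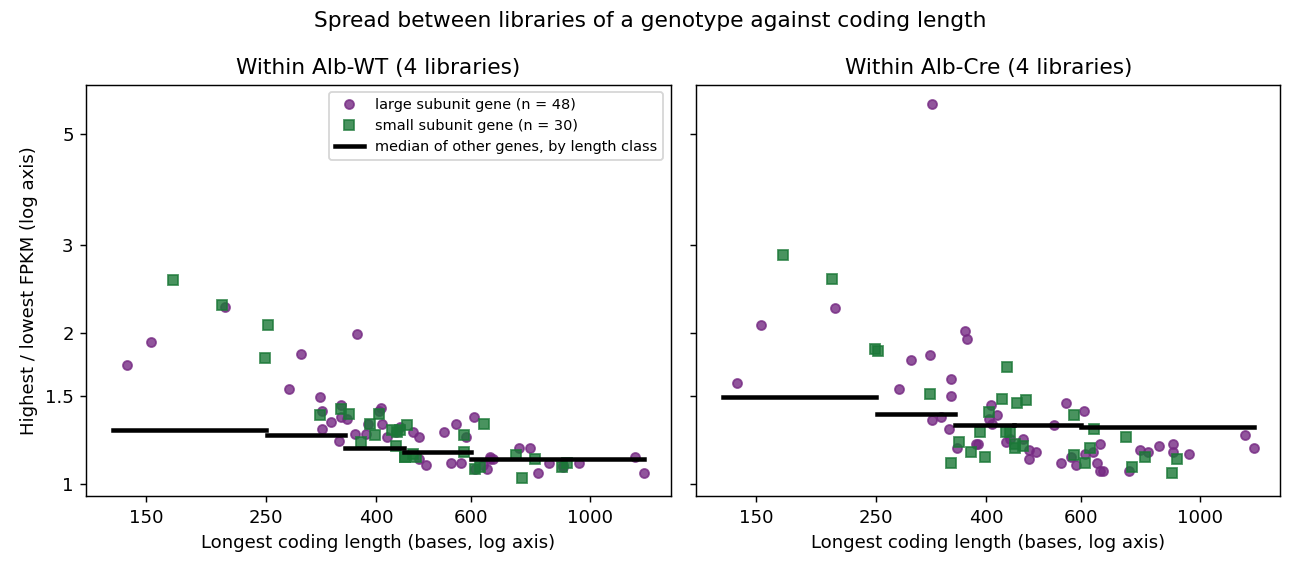
Ratio of highest to lowest FPKM within Alb-WT (left) and within Alb-Cre (right) against longest coding length in bases, both axes logarithmic, with circles for 48 large and squares for 30 small subunit genes and bars for the median of other genes of at least 5 FPKM in each length class. Members of up to 250 bases reach a median ratio of 2.09 within Alb-WT, members over 600 bases stay at 1.10, and the point near 5.7 in the right panel is Rpl36al.

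Coding length also ordered the genotype calls. Of members up to 250 bases 1 of 6 was called higher and none was without overlap, where 22.4% of other genes of at least 5 FPKM in this class did not overlap with Alb-Cre higher. Of those of 251 to 350 bases 3 of 12 were called, of 351 to 450 bases 10 of 20, of 451 to 600 bases 11 of 16, and of over 600 bases 18 of 24. Groups did not overlap in 25.0%, 40.0%, 68.8% and 79.2% of the latter 4 classes, where among other genes of at least 5 FPKM 24.0%, 26.0%, 22.3% and 14.7% did not. The size of the difference went the other way, with medians of 0.66, 0.41, 0.39, 0.35 and 0.31 from the shortest to the longest class. The called member of the shortest class was Rpl41, chosen here after its values were seen, with 310, 218, 346 and 268 FPKM in Alb-Cre and 137, 238, 143 and 217 FPKM in Alb-WT. Its groups overlapped at Alb-Cre replicate 2 (log2 difference 0.65, SE 0.211).

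In the 24 members over 600 bases, the score was 0.30, 0.25, 0.34 and 0.37 across Alb-Cre replicates 1 to 4 and -0.02, 0.03, -0.05 and 0.04 across Alb-WT replicates 1 to 4. There the swing was 0.12 within Alb-Cre and 0.09 within Alb-WT, and the lowest Alb-Cre score was 0.21 above the highest Alb-WT score. In the 6 shortest, the score was 0.81, -0.12, 0.96 and 0.87 in Alb-Cre and -0.46, 0.52, -0.49 and 0.43 in Alb-WT, with swings of 1.08 and 1.01. The 76 other genes of up to 250 bases had the same low libraries in each genotype, Alb-Cre replicate 2 and Alb-WT replicates 1 and 3, at a smaller size, with 0.16, -0.09, 0.18 and 0.26 in Alb-Cre and -0.13, 0.12, -0.10 and 0.11 in Alb-WT. In 3719 other genes of over 600 bases the scores lay between -0.13 and 0.00 in Alb-Cre and between -0.02 and 0.01 in Alb-WT.

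The libraries also differed along coding length over all genes. Within each library, the rank correlation across 10594 genes of coding length with the library's deviation from the gene mean was -0.26, -0.18, -0.27 and -0.07 across Alb-Cre replicates 1 to 4 and 0.29, 0.17, 0.30 and 0.16 across Alb-WT replicates 1 to 4. With a smooth trend on coding length removed from each library, an alternative chosen after seeing the data, the canonical score was 0.37, 0.21, 0.41 and 0.33 in Alb-Cre and -0.11, 0.12, -0.11 and 0.10 in Alb-WT. The swing was then 0.20 within Alb-Cre and 0.23 within Alb-WT, Alb-WT replicates 2 and 4 were again the higher pair, and the members' median difference less that of all genes was 0.34 in place of 0.49. The part of fragment length or RNA quality in the swing was not tested.

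**Figure D5:**
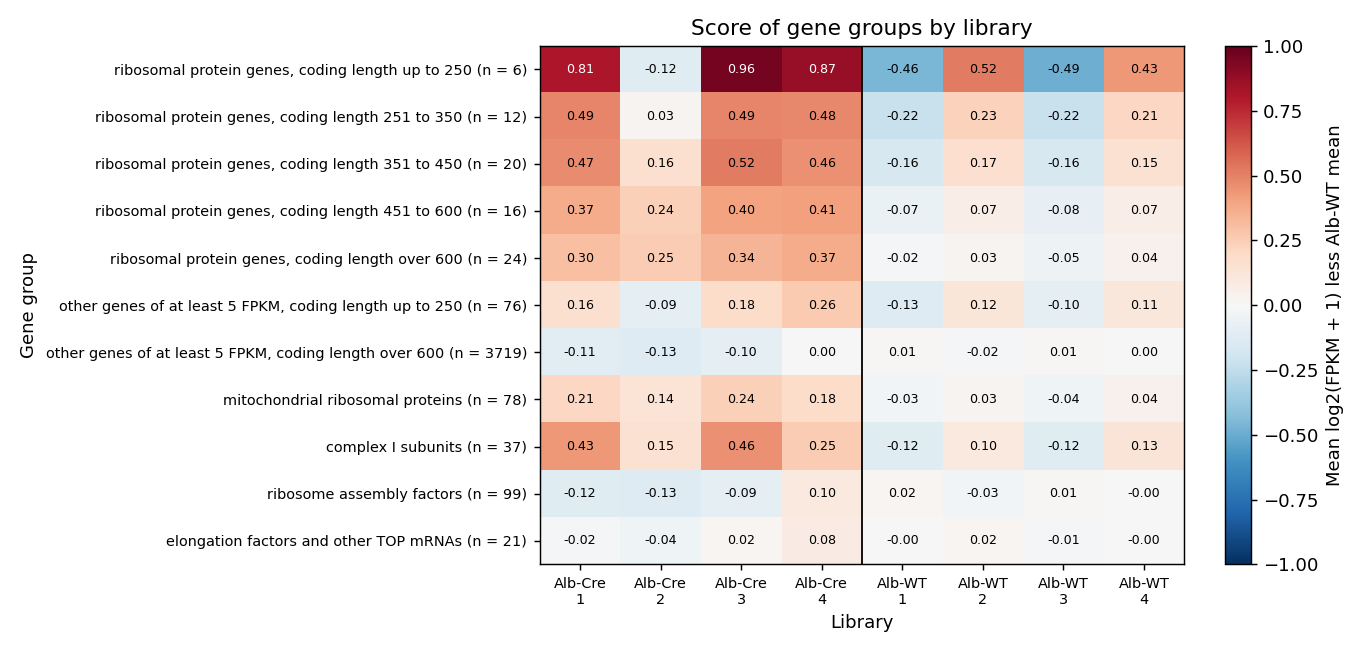
Scores (colour and printed value, mean log2(FPKM + 1) less the Alb-WT mean) of gene groups in rows for each of the 8 libraries in columns. The members of up to 250 coding bases swing from -0.12 to 0.96 within Alb-Cre and from -0.49 to 0.52 within Alb-WT, members over 600 bases keep between 0.25 and 0.37 in Alb-Cre, and ribosome assembly factors lie between -0.13 and 0.10 in all libraries.

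Members with and without a tract at the annotated start had like differences. The 12 tested members with the tract had a median difference of 0.34 and a median Alb-WT ratio of 1.33, and 4 were called higher. The 46 tested members with a RefSeq start and no tract at it had a median difference of 0.37 and a median ratio of 1.25, and 28 were called. The median coding length was 379 bases with the tract and 448 without it, and no test was made between these groups. Of the 60 members with a start, 29 had a tract within 5 bases of it and 13 at it. The group without a tract at the start therefore holds members with a tract nearby, and the split cannot tell TOP genes from others.

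Among the paralogs, Rpl22l1 and Rps27l were called higher. Rpl22l1, the paralog of Rpl22, was at 12.7, 7.64, 12.4 and 15.4 FPKM in Alb-Cre and 6.76, 6.88, 5.45 and 6.61 FPKM in Alb-WT, the largest difference of all members (mean 12 ± 3.23 against 6.43 ± 0.657 FPKM, SD, n = 4, 1.87-fold, log2 difference 0.78, SE 0.178). The groups did not overlap, and Alb-Cre replicate 2 lay just above the highest Alb-WT library. Its ratio to Rpl22 in FPKM ran from 0.225 to 0.457 over the Alb-Cre and from 0.183 to 0.236 over the Alb-WT libraries. Rps27l, a p53 target that can replace Rps27, was at 282, 201, 257 and 187 FPKM in Alb-Cre and 121, 166, 127 and 162 FPKM in Alb-WT. Here Alb-Cre replicate 4 was the lowest Alb-Cre library, and the groups were apart (log2 difference 0.67, SE 0.159).

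Rps27l exceeded its canonical partner in FPKM in every library. Merged exon lengths were 816 bases for Rps27l and 1043 for Rps27, beside mRNA lengths of 575 and 345. Rps27 stood at 93.6, 50.9, 88.1 and 83.9 FPKM in Alb-Cre and 42.3, 73.3, 36.7 and 76.5 FPKM in Alb-WT, with the swing of the short genes (log2 difference 0.50, SE 0.277, not called). The ratio of Rps27l to Rps27 lay between 2.22 and 3.95 in Alb-Cre libraries and between 2.12 and 3.47 in Alb-WT libraries, ranges that overlap. The other paralogs were below their partners in level. Rpl7l1, a nucleolar relative of Rpl7, was at 19.2, 19.8, 20 and 20.3 FPKM in Alb-Cre and 19.3, 16.3, 17.1 and 17.5 FPKM in Alb-WT, or 0.133 to 0.180 times Rpl7 over all libraries (log2 difference 0.17, SE 0.0649, not called). Rps4l, annotated in GENCODE M21 as a transcribed processed pseudogene, was at 9.60, 9.83, 11.9 and 10.3 FPKM in Alb-Cre and 9.90, 13.0, 7.34 and 9.79 FPKM in Alb-WT (log2 difference 0.07, SE 0.145, not called). Reads that fit both Rps4l and the similar Rps4x may be split between them by the counting, so this value is uncertain.

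A few members were listed far below the rest. Rpl24 (chromosome 16, 55966275 to 55971435, plus strand, GRCm38), a 60S gene, was at 0.237, 0.0290, 0.190 and 0.273 FPKM in Alb-Cre and 0.0579, 0.0999, 0.438 and 0.341 FPKM in Alb-WT, from 1 to 15 recovered reads a library. Rps10 (chromosome 17, 27630418 to 27636669, minus strand), a 40S gene, was at 0.198, 0.207, 0.194 and 0.939 FPKM in Alb-Cre and 0.555, 0.657, 0.507 and 0.444 FPKM in Alb-WT. Both were below the filter and not tested. Rpl36al (chromosome 12, 69182731 to 69184083, minus strand), the paralog of Rpl36a, was at 0.428, 0.309, 0.310 and 1.77 FPKM in Alb-Cre and 0.904, 0.760, 0.822 and 0.698 FPKM in Alb-WT, from 14 to 94 reads. Without Alb-Cre replicate 4, the only Alb-Cre library above the Alb-WT range, its log2 difference went from -0.15 (SE 0.224, not called) to -0.41 and was called lower.

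Rpl13a (chromosome 7, 45125558 to 45128761, minus strand), which has a separate role in the interferon response of macrophages, was the only tested canonical gene with a lower mean in Alb-Cre. It was at 4.00, 4.65, 4.72 and 5.58 FPKM in Alb-Cre and 6.05, 5.56, 5.29 and 4.44 FPKM in Alb-WT, where the groups overlapped (log2 difference -0.14, SE 0.107, not called). The next canonical gene in level, Rps15a, had a mean of 15.2 FPKM over merged exons of 6270 bases, beside 640 for its mRNA. The median over the members was 94.7 FPKM.

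These low genes share exons with other gene models. In GENCODE M21, 47.0% of the exon bases of Rpl24, 35.4% of Rpl13a, 24.5% of Rpl36al and 20.6% of Rps10 lie in exons of other models on the same strand. These shares are over all such models, small RNA genes included. With small RNA genes left out, the models sharing most were Gm28037, Gm45713, Gm49383 and RPS10-NUDT3, in that order. No row of the table was found for Gm28037, Gm45713, Gm49383 or RPS10-NUDT3. The part of this sharing in the low values was not tested, and the levels of these 4 genes are uncertain.

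Ribosomal protein genes outside the naming rule went with the members for the most part. Of the 5 tested, 3 were called higher and none lower, with a median of 0.32. Rack1, the 40S scaffold for kinases, was at 64.2, 59.1, 62.7 and 73.0 FPKM in Alb-Cre and 47.9, 48.1, 48.6 and 51.7 FPKM in Alb-WT (log2 difference 0.39, SE 0.0750, limma adjusted p = 0.00766). Rps3a1 was at 403, 390, 400 and 378 FPKM in Alb-Cre and 323, 323, 334 and 328 FPKM in Alb-WT (log2 difference 0.26, SE 0.0614, adjusted p = 0.0157). Both lay apart without a low Alb-Cre replicate 2 of the kind seen in short genes. Rps27rt, a retrogene copy of Rps27 whose reads may be mixed with those of its parent, had a log2 difference of 0.52 (adjusted p = 0.0174). Fau, which encodes a ubiquitin-like protein fused to a 40S protein, had 0.32 (adjusted p = 0.0568).

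Few genes that make or regulate ribosomes were called. Of 99 tested ribosome assembly factors 3 were called higher and 9 lower, with a median difference of -0.06. Higher were Nhp2 and Snu13, which sit in small nucleolar ribonucleoproteins, and Pno1, a 40S assembly factor, at 0.31, 0.23 and 0.43. Among the lower ones were Npm1, the major nucleolar phosphoprotein, at -0.34, Tcof1, a cofactor of ribosomal DNA transcription, at -0.47, Utp14a at -0.32 and Ddx52 at -0.31. Of 19 genes of the RNA polymerase I machinery, which transcribes ribosomal RNA, none was called higher and 1, Taf1d at -0.32, was called lower, with a median of -0.08.

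Other mRNAs of the TOP class and their regulators were mixed. Of 21 elongation factor and other TOP genes 4 were called higher and 3 lower, with a median of 0.05. Eef1g and Eef1b2, subunits of the elongation factor exchange complex, were at 0.43 and 0.45, Tpt1 at 0.28 and Eif3l at 0.19, while Eif4b was at -0.47, Nap1l1 at -0.51 and Eif4a2 at -0.24. Of 26 genes of mTORC1 and its pathway, Lamtor2 (0.48) and Lamtor1 (0.23), lysosomal anchors of mTORC1, were called higher. Called lower were Tsc1, an inhibitor of the pathway (-0.46), Larp1 (-0.28), Rragc (-0.39) and the S6 kinase gene Rps6kb1 (-0.29). All calls in this paragraph and the one before are from the same limma fit, read against 8.48% of genes called higher and 23.3% lower.

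The genes of mitochondrial ribosomes, which translate the mitochondrial genome, and of respiratory complex I are given beside them. Of 78 mitochondrial ribosomal protein genes 25 were called higher and none lower, with a median of 0.20, and scores were 0.21, 0.14, 0.24 and 0.18 in Alb-Cre and -0.03, 0.03, -0.04 and 0.04 in Alb-WT. Mrps12 and Mrpl42, at 0.51 and 0.48, were among them. Of 37 complex I genes 16 were called higher and none lower, with a median of 0.29, among them Ndufb3 at 0.66 and Ndufb11 at 0.50. Complex I scores were 0.43, 0.15, 0.46 and 0.25 in Alb-Cre and -0.12, 0.10, -0.12 and 0.13 in Alb-WT. Alb-Cre replicate 2 and Alb-WT replicates 1 and 3 were the low libraries here as in the cytosolic ribosomal protein genes, and Alb-Cre replicate 4 lay between replicate 2 and the other 2 Alb-Cre libraries. These counts too are read against 8.48% of genes called higher and 23.3% lower. Whether these groups differ from the cytosolic ribosomal protein genes was not tested.

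Markers of several cell types moved with genotype beside these results. Summed hepatocyte markers (6 genes, none called) ran from 29200 to 41500 FPKM in Alb-Cre libraries and from 37900 to 38500 FPKM in Alb-WT libraries, in keeping with liver as the labelled tissue. Summed Kupffer cell markers were 124 to 385 against 442 to 471 FPKM (6 of 6 genes called lower), monocyte markers 81.7 to 400 against 400 to 428 FPKM (4 of 4 lower) and neutrophil markers 6.62 to 81.0 against 252 to 318 FPKM (4 of 4 lower). Cholangiocyte markers were 36.2 to 61.8 against 79.0 to 92.2 FPKM (4 of 4 lower), stellate cell markers 32.4 to 46.7 against 57.3 to 60.6 FPKM (4 of 6 lower) and erythroid markers 74.1 to 177 against 358 to 462 FPKM (3 of 4 lower). Sinusoidal endothelial markers were 22.0 to 32.1 against 27.9 to 30.5 FPKM (2 of 4 lower). T cell markers, at 1.5 to 11.8 against 6.88 to 7.57 FPKM, and B and plasma cell markers, at 11 to 56.8 against 14.7 to 16.3 FPKM, had no gene called among 4 tested in each. Over all genes, 23.3% were called lower, and these counts are read against that share. The part of these cell types in the ribosomal protein values was not tested. Alb-Cre replicate 4, with the highest immune marker sums of its group, had a ribosomal protein score of 0.45, beside 0.43 and 0.47 in Alb-Cre replicates 1 and 3. With median-of-ratios scaling its score was 0.43, beside 0.64 and 0.69 in those libraries.

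Of the 43 members called higher, 29 were called whichever single library was left out, and 26 were called in each of 18 alternative fits, Rpl12, Rpl3, Rpl15, Rpl10, Rpl22l1, Rplp1, Rpsa, Rps2, Rps14, Rps19, Rps26 and Rps27a among them. The 43 stood beside 939 of the 11077 genes tested that were called higher. Leaving out Alb-WT replicate 3 gave 29 members, beside 546 of all genes. Leaving out Alb-Cre replicate 4 gave 55, beside 1679. Scaling moved both numbers. Median-of-ratios scaling gave 61 members beside 1723 of all genes, quantile normalisation 33 beside 1554, and rescaling to a common FPKM sum 31 beside 623. Between 75 and 78 members had a difference above 0 in each of these fits.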

How the data were processed

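Bulk RNA sequencing of liver was described in 4 Alb-Cre and 4 Alb-WT libraries, with groups taken from the sample titles. The table the authors deposited holds FPKM. HISAT2 2.0.5 and the builds hg38 and mm39, with no role, are named per the submitters' processing notes. For the counter, the annotation and the strand setting the entry is: not given in the sources used here. The sample descriptions also name 10x Genomics, which the bulk protocol of the labels does not match. The table held no value of 0 (smallest 0.00167 FPKM) and 13696 distinct symbols. Rpl3l, Rpl10l and Rpl39l are not analysed here.

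Steps between FPKM values gave whole read numbers for 13702 of 13703 rows (99.99%, relative tolerance 1e-06), using lengths equal to GENCODE M21 merged exons for 12707 rows. Of recovered numbers under 200, 62.9% were even, so mates of a pair may have been counted separately and counting precision is lower than these numbers imply. Recovered reads on listed genes were 96.9% to 97.5% of the library totals.

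The fit used R 4.3.3 and limma 3.58.1 (empirical Bayes with intensity trend, genotype only) on log2(FPKM + 1) of the 11077 rows averaging 0.5 FPKM or more, with p-values adjusted over all of them. The pseudocount of 1 understates differences of low genes. Other steps ran in Python 3.11.15 (scipy 1.17.1, pandas 2.3.3, numpy 2.4.6), with figures from matplotlib 3.10.9. The fit was run on simulated data in which genes varied independently. That simulation holds no swing shared between genes, so it does not cover the swing of the members. Starts came from RefSeq (GRCm38.p6, 60 of 81 members matched), and other coordinates from GENCODE M21.

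Members and lists were chosen with earlier results of these data known. Named were the 3 highest, 3 most positive and 3 least positive canonical genes of each subunit, the stalk genes and Rpsa, the paralogs, up to 10 called genes without overlap, genes of known role, members not tested, and up to 4 called genes per direction of a related list. Alternatives were the pseudocount, the filter, scaling, a length trend, voom on recovered reads, a replicate block and leaving out each library. Nothing in the labels pairs libraries of equal replicate number. Correlations of same-numbered deviations were -0.065, -0.054, -0.097 and 0.013, which cannot exclude a shared litter or day of small effect. The planned comparison of paralog protein sequences was not run. The single values of 2 genes are not reported here.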

Additional observations from a re-analysis of the deposited data

Results flagged for a closer look

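In groups of 4 libraries, a value was singled out when its gap to the nearest other library, as a share of the group's range, exceeded Dixon's 95% critical value. The rate of 1 in 20 behind that value holds for independent groups. These groups share the same libraries, and the canonical score averages genes among them, so no count expected by chance is given. Of 72 groups looked at, 6 were singled out. Alb-Cre replicate 2 was the low library in 5 of these 6. Rpl35 stood at 37.0 FPKM there against 67.7 to 72.2 in the other Alb-Cre libraries, Rpl39 at 34.9 against 70.5 to 72.6, Rps21 at 75.9 against 136 to 141, and Rps19 at 24.1 against 29.9 to 31.0. The canonical score was 0.16 in that library against 0.43 to 0.47. The other was Rpl36al in Alb-Cre replicate 4, at 1.77 FPKM against 0.309 to 0.428. No Alb-WT library was singled out.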

How the results depend on the processing

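Under scaling and trend alternatives the members' direction held except in genes near 0. Rpl36 went to -0.01 with the coding length trend removed and -0.04 with the merged exon length trend removed. Rps4l went to -0.01 with the length trend removed, -0.01 with every library brought to the same FPKM sum, and to between -0.05 (without Alb-WT replicate 3) and 0.20 (without replicate 2) when 1 library was left out. With quantile normalisation Rpl7 came to -0.00, Rpl13a to 0.01 and Rpl36al to 0.06. The members' median was 0.53 with median-of-ratios scaling, and less that of all genes it ranged from 0.24 (quantile) to 0.54.

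Over all genes, 2582 were called lower in the main fit, 1431 with the coding length trend removed, 1502 with the length trend removed, 981 at a mean of at least 5 FPKM, 1656 with median-of-ratios scaling and 1469 with quantile normalisation. Called higher were 939, and 1723, 1554 and 623 with median-of-ratios, quantile and common-sum scaling. Leaving out 1 library gave 546 to 1679 called higher and 1205 to 5112 lower, both highest without Alb-Cre replicate 4. Members called higher then ranged from 29 to 55 and called lower from 0 to 1. When 1 library was left out, the swing within Alb-Cre ranged from 0.05, without Alb-Cre replicate 2, to 0.31. With common-sum scaling of all libraries it was 0.42.

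With the replicate number as a block, 613 genes were called higher and 1631 lower, and 30 members higher, 13 fewer calls than without it. The labels state no pairing, and Alb-Cre replicates 1 to 4 correlated best with Alb-WT replicates 2, 3, 4 and 1. Whether equal numbers share a litter or day is not known. A start tract was counted in 13 members at the start and 29 within 5 bases of it. The paralog protein comparison was not run. The cause of these shifts was not tested. Values of Rpl24, Rps10 and Rpl36al rest on few reads.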

Other observations

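Hosts of small nucleolar RNAs, which guide the modification of ribosomal RNA and many of which carry TOP tracts themselves, are given here beside the ribosomal protein genes. Of 10 tested, none was called higher, beside 8.48% of all genes, and 3 lower, a share near the 23.3% of all genes called lower. The median was -0.28, and the called genes were Snhg18 at -0.53, Snhg5 at -0.27 and Gas5 at -0.36 (limma adjusted p = 0.0229, 0.0321 and 0.0331). Gas5 stood at 7.78, 6.25, 8.20 and 8.82 FPKM in Alb-Cre and 9.86, 10.9, 9.0 and 11 FPKM in Alb-WT, without overlap. Their scores were -0.20, -0.52, -0.33 and -0.03 in Alb-Cre and -0.09, 0.12, -0.11 and 0.08 in Alb-WT, so Alb-Cre replicate 2 was the lowest Alb-Cre library here too, and Alb-WT replicates 2 and 4 the higher pair.

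The table also listed 40 rows named as ribosomal protein pseudogenes, of which 32 passed the filter. Their mean level had a median of 1.32 FPKM and a maximum of 7.98 FPKM. How reads that fit both a pseudogene and its parent were assigned is not given in the sources used here.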
